A study of Mus musculus with 2 samples.

Results

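Mouse miRs whose name carries a number of 2000 or more after the prefix miR, called late-numbered miRs here, were examined in sperm small RNA. The members are the entries of the miR count tables in which every name has such a number and which had at least 1 read in at least 1 library. Of 1886 entries listed, 945 (50.1%) were late-numbered and 89 of these (9.42%) had a read. The members were chosen by their read counts, so the fact that they were read is not a finding, and their levels are given as a description without a test. At the threshold itself, 17 members had exactly 1 read in both libraries together, and the other 856 late-numbered entries had 0 reads in both.

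The study compared male mice kept in enriched or standard cages and followed RNA of the sperm into the offspring. The 2 libraries used here are from sperm of naive, wild-type C57BL/6J mice at 3 months of age, a single group of 2 biological replicates, so there is no contrast between conditions. Sperm had swum out of the epididymis and was treated with a hypotonic buffer against somatic cells. The names of the deposited files carry a mark for a time after treatment that the sample labels do not explain, and the group is given as the labels have it. The number of mice behind each library is not given in the sources used here, and no other group was analysed here.

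A miR is usually cut from a hairpin, first by Drosha in the nucleus and then by Dicer in the cytoplasm, which leaves a short duplex of a 5p and a 3p arm with overhanging 3′ ends. In a mirtron, splicing in place of Drosha sets an end of the hairpin, so that this end lies at an end of an intron. Names in miRBase are numbered in order of deposit, and many late numbers were given to weakly expressed small RNAs found by deep sequencing. Many small nucleolar RNAs (snoRNAs) lie in introns and guide the modification of ribosomal RNA. The snoRNAs of the C/D type carry a C box (UGAUGA) and a D box (CUGA), and those of the H/ACA type form hairpins. Pieces of snoRNAs, tRNAs and rRNAs are of a size similar to miRs and can enter the same libraries.

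The mature sequences of the 11 most abundant members with a RefSeq sequence are shown first because they carry most of the reads, with the seed (bases 2 to 8) in capitals and 5′ to 3′. Sequences and positions are from RefSeq on GRCm38.p6. The members without a sequence there were miR-3074-1-3p, miR-3079-5p, miR-5099, miR-6539, miR-6540-5p, miR-6913-3p, miR-6952-5p, miR-6952-3p, miR-7214-5p and miR-7219-3p, and 79 of 89 members matched.
miR-3535, chr1:86352062-86352087, minus strand: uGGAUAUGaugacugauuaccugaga
miR-6240, chr5:114851973-114851998, plus strand: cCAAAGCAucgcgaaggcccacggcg
miR-7210-5p, chr14:24088877-24088899, plus strand: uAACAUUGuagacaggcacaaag
miR-3471, chr4:10845585-10845606, minus strand: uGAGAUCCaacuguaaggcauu
miR-6538, chr12:26414970-26414988, minus strand: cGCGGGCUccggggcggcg
miR-3084-3p, chr19:24942240-24942260, minus strand: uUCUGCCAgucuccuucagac
miR-3068-3p, chr12:87437685-87437706, minus strand: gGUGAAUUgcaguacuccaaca
miR-7236-3p, chr11:121387145-121387166, minus strand: uUGGACCGcacagauuuagacc
miR-3963, chr3:151023839-151023857, minus strand: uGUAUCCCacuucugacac
miR-5100, chr11:60728698-60728718, plus strand: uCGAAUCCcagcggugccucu
miR-5121, chr7:45126925-45126945, minus strand: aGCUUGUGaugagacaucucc

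No 2 members with a sequence shared a seed. A lower-numbered miR with a read shared the seed of only 1 member, miR-6240, and this was miR-330-3p with 2 reads in both libraries together. Each of the other seeds above was therefore found in a single miR with a read, among those with a sequence.

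The tables held 4049599 miR reads in replicate 1 and 5648067 in replicate 2, so that 1 read stood for 0.247 and 0.177 CPM (counts per 1000000 miR reads). A further 38.1% and 26.3% of the reads in the tables were assigned to no miR. Of 7 miRs known from male germ cells, 5 were read in both libraries, with a summed level of 3898 and 1640 CPM, while miR-449b and miR-449c-5p were at 0. The 5 epithelial miRs of the miR-200 family summed to 10608 and 8525 CPM and the 2 miRs of smooth muscle and stroma (miR-143-3p and miR-145a-5p) to 40965 and 62097 CPM. The 2 red blood cell miRs summed to 59.0 and 138 CPM and the 3 leukocyte miRs to 113 and 124 CPM. The part of such cells in the levels of the late-numbered miRs was not tested.

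The late-numbered miRs made up 945 of the entries and the lower-numbered ones 941, yet few of the late-numbered ones were seen. Over all entries of the tables, 29.1% had a read in at least 1 library. Among the lower-numbered entries this was 459 (48.8%), against the 9.42% of late-numbered entries. Entries whose name does not begin with miR, such as the let-7 family, counted as lower-numbered and in the class below 1000. The share with a read was 52.0% (426 of 820) for numbers below 1000 and 27.3% (33 of 121) for numbers from 1000 up to 2000. It was 17.4% (27 of 155) for numbers from 3000 up to 4000 and 10.3% (7 of 68) from 4000 up to 6000. It was 6.52% (21 of 322) for numbers from 6000 up to 7000 and 8.61% (34 of 395) from 7000 on, and none of the 5 entries from 2000 up to 3000 had a read. The share was thus lower in each class than in the class before it up to 7000, leaving aside the 5 entries just above 2000, and was slightly higher from 7000 on.

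**Figure D1:**
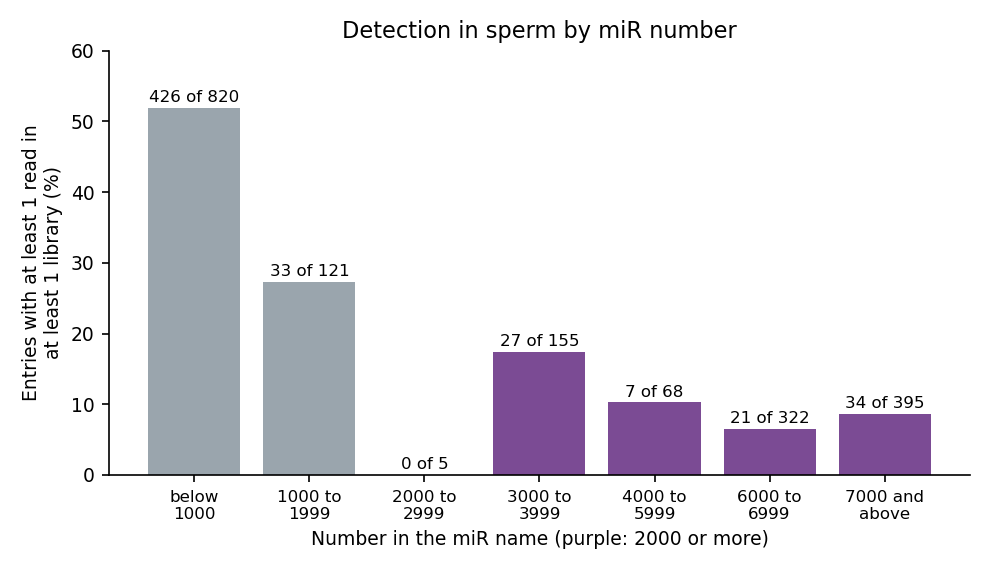
Share of listed miR entries with at least 1 read in at least 1 of the 2 sperm libraries (y axis, percent) by the number in the miR name (x axis), with purple bars for numbers of 2000 or more and the entries counted above each bar. The highest purple bar, at 17.4%, lies below both gray bars, at 52.0% and 27.3%.

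Most members were seen in a single library. Of the 89 members, 28 had a read in both libraries (31.5% of members and 2.96% of the late-numbered entries listed), 45 in replicate 1 only and 16 in replicate 2 only. Of all entries, 20% had a read in each library. Of the 459 lower-numbered entries with a read, 350 (76.3%) did, which was 37.2% of those listed. At least 10 reads in each library were reached by 11 members, or 1.16% of the late-numbered entries listed, where the share over all entries was 12.9% and over lower-numbered entries 24.8%. The median member had 3 reads in both libraries together, and the median lower-numbered entry with a read had 29. In 75 members (84.3%) neither library reached 10 reads, and 50 members had at most 3 reads in all. Among the 459 lower-numbered entries with a read, these counts were 177 (38.6%) and 87. The highest count among members seen in a single library was 12, for miR-3068-5p in replicate 2. For most members the depth cannot show whether the libraries differ, since 0 reads allow a level of up to 0.741 CPM in replicate 1 and 0.531 CPM in replicate 2 (3 reads).

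Replicate 1 held more members than replicate 2, with 73 against 44, although it was the shallower library. Thinned to the depth of replicate 1, replicate 2 would be expected to show 41.3 members. For lower-numbered entries the libraries were closer, with 411 in replicate 1 and 398 in replicate 2. The larger share of reads assigned to no miR was also that of replicate 1, and its part in the number of members was not tested.

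Late-numbered miRs took 2138 reads in replicate 1, or 0.0528% of its miR reads (Wilson 95% interval 0.0506 to 0.0551%). In replicate 2 they took 2083 reads, or 0.0369% (0.0353 to 0.0385%). The mean was 0.0448% ± 0.0113 (SD, n = 2), and the intervals of the libraries did not overlap. Intervals and floors cover counting error only, because reads were counted without molecular identifiers. The 2 most abundant members held 68.2% of the late-numbered reads in replicate 1 and 79.0% in replicate 2, and without them the level fell to 168 and 77.5 CPM. The total thus rested on a pair of small RNAs, whose sequences are described next.

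miR-3535 was the most abundant member, with 861 reads (213 CPM) in replicate 1 and 1034 reads (183 CPM) in replicate 2. Its mean was 198 ± 20.9 CPM (SD, n = 2), which placed it at rank 57 of all entries. Its letters are the first 26 bases of the 80-base snoRNA Gm24148, which lies in an intron of Ncl, the gene of nucleolin, a nucleolar protein that takes part in ribosome assembly. The snoRNA is shown with the bases of the miR in capitals, from GENCODE M21 and in DNA letters.
Gm24148: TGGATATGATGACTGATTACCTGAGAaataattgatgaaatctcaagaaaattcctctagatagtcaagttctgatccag
UGAUGA, the letters of a C box, stood at bases 7 to 12 of miR-3535, and CUGA, the letters of a D box, at bases 13 to 16 and 21 to 24, with no overlap between these motifs. Searched on the RNA strand only, UGAUGA was in 12 of 1679 mature miRs (0.715%) and CUGA in 217 of them (12.9%). The annotated hairpin of miR-3535 is 147 bases long, on the minus strand at chr1:86351981-86352127, and holds the whole snoRNA. Outside the miR, UGAUGA stood at bases 73 to 78 of this hairpin and CUGA at 25 to 28 and 112 to 115. The last of these lies near the 3′ end of the snoRNA, and which CUGA serves as a D box was not tested.

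miR-6240 was the next in abundance, with 598 reads (148 CPM) in replicate 1 and 611 (108 CPM) in replicate 2. Its mean was 128 ± 27.9 CPM (SD, n = 2), at rank 70 of all entries, and no other member was among the 100 most abundant entries. It is 26 bases long like miR-3535, and its hairpin on chromosome 5 lies in no annotated gene of the same strand. Its letters were in none of 139565 annotated transcripts other than miRs. The longest rRNA among these was 1849 bases, and the RNA of the large ribosomal subunit and the tRNAs of the nuclear genome were not searched here.

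miR-7210-5p followed in abundance and differed most between the libraries among these, with 223 reads (55.1 CPM) in replicate 1 and 97 reads (17.2 CPM) in replicate 2. The mean was 36.1 ± 26.8 CPM (SD, n = 2), so that the spread was nearly as large as the level. No annotated transcript other than a miR held its letters.

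Below these, no member exceeded 15 CPM in either library. miR-5099 had 57 and 70 reads in replicates 1 and 2. miR-3471 had 46 and 20 reads, and its letters were in transcripts of 34 genes, so reads from many loci would fit them. miR-6538, 19 bases long with 94.7% G and C, in an intron of Rnf144a, had 35 and 20 reads. All of these levels lay far below that of miR-6240 in both libraries.

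Of the others, miR-3084-3p had 24 and 26 reads and miR-3068-3p 24 and 24. miR-7236-3p, in an intron of Rab40b, had 28 and 12 reads. miR-3963, a 19-base form outside annotated genes of its strand, had 19 and 20 reads. miR-5100 had 23 and 10 reads and miR-5121 9 and 18. The counts of miR-3084-3p, miR-3068-3p and miR-3963 differed by at most 2 reads between the libraries. Since replicate 1 was shallower, their CPM there was 1.29, 1.39 and 1.32 times that in replicate 2. The counts of miR-7236-3p and miR-5100 were higher in replicate 1 and that of miR-5121 was higher in replicate 2.

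**Figure D2:**
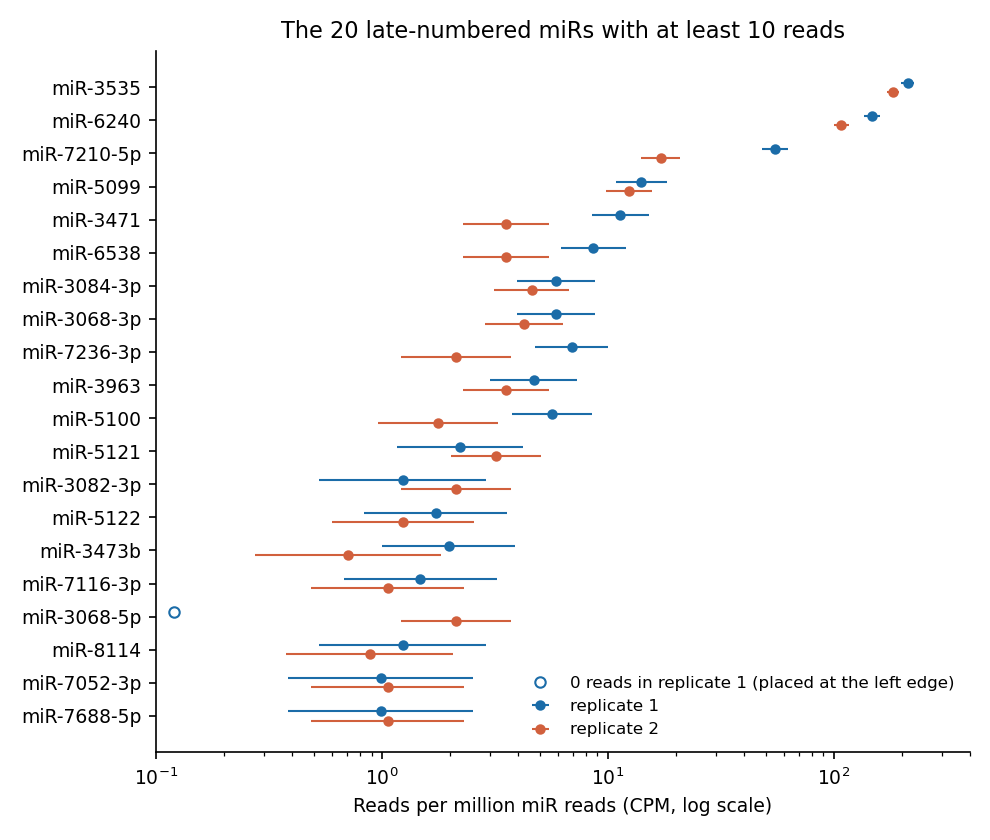
Level of the 20 late-numbered miRs with at least 10 reads in both libraries together, in CPM (x axis, log scale), by miR (y axis), with a point for each library and the Wilson 95% interval as a bar. miR-3535 and miR-6240 stand above 100 CPM in both libraries, miR-7210-5p is at 55.1 and 17.2 CPM, and the open circle marks the 0 reads of miR-3068-5p in replicate 1.

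Among the 20 members with at least 10 reads in both libraries together, 15 had a higher CPM in replicate 1 and 5 in replicate 2. Their median log2 ratio (replicate 2 over replicate 1) was -0.35, beside -0.26 over 303 lower-numbered entries with at least 10 reads, on the log2(CPM + 0.5) scale. Scaling by TMM moved these medians to -0.09 and 0.07, and then 13 members were higher in replicate 1 and 7 in replicate 2. The direction of miR-3535 changed with the scaling, with a log2 ratio of -0.22 by the total and 0.13 by TMM, and so did that of miR-5099 (-0.18 and 0.16). Among the members with at least 20 reads, the 5 with the largest ratios were all lower in replicate 2 under each scaling. By the total, the log2 ratio was -1.65 for miR-7210-5p, -1.55 for miR-3471, -1.50 for miR-7236-3p, -1.44 for miR-5100 and -1.18 for miR-6538. By TMM these 5 ratios lay between -1.31 for miR-7210-5p and -0.86 for miR-6538. With 1 library per replicate and 1 condition, none of these ratios was tested.

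Few late-numbered hairpins had both arms read. For 373 late-numbered hairpin names both arms were listed, of which 4 had a read on each arm (1.07%), 60 on a single arm (28 on the 5p arm and 32 on the 3p arm) and the rest on neither. Of the 64 names with any read, 6.25% thus had both arms. Among 342 lower-numbered names with both arms listed, 129 had a read on each (37.7%), which was 53.3% of the names with any read. The members had fewer reads, and the part of depth in this difference was not tested. Of the members, 33 were 5p arms, 38 were 3p arms and 18 had no arm in their name. These 18 carried 78.7% of the late-numbered reads in replicate 1 and 87.7% in replicate 2.

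The 4 names with both arms read were miR-3068, miR-7210, miR-6952 and miR-7230. miR-3068-3p had 24 reads in each library, and miR-3068-5p had 0 in replicate 1 and 12 in replicate 2. miR-7210-3p had 2 and 0 reads beside the 223 and 97 of its 5p arm, so that the 5p arm held 99.4% of the reads of this hairpin. miR-6952 (5 and 0 reads on the 5p arm, 1 and 0 on the 3p arm) and miR-7230 (1 and 0, 2 and 0) were read in replicate 1 only, and no name had both arms read in each library. Detection of both arms therefore rested on few reads in every case but the 5p arm of miR-7210 and both arms of miR-3068. Separately, reads were found on miR-3074-5p (4 and 2 reads) and on miR-3074-1-3p (0 and 5 reads), whose names differ by the copy of the hairpin and were not counted as a pair.

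The hairpins of the 2 pairs with the most reads are shown to place the arms, with the arms in capitals.
Mir3068, chr12:87437679-87437757, minus strand: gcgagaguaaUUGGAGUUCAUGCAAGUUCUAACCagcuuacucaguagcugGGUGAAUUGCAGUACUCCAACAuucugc
Mir7210, chr14:24088877-24088930, plus strand: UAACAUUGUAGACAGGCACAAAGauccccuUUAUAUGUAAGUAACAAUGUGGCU
Folded with RNAfold, the arms of miR-3068 formed 16 pairs with each other and left 3′ overhangs of 2 bases on the 3p arm and 1 on the 5p arm, in a fold of -31.3 kcal/mol. The arms of miR-7210 formed 14 pairs with overhangs of 2 and 2 bases, in a fold of only -9.1 kcal/mol. The arms of miR-7230 formed 11 pairs with overhangs of -1 and 2 bases (-1 marks an arm that ends 1 base short of its partner). Overhangs of 1 to 3 bases on both arms are the shape Drosha and Dicer leave. They were found for 77 of 101 lower-numbered names with both arms read and a sequence (76.2%). Among late-numbered names with both arms listed and a sequence, whether read or not, they were found for 159 of 290 (54.8%). Of the 3 names with both arms read whose arms had a sequence, miR-3068 and miR-7210 thus had such a duplex and miR-7230 did not, and miR-6952 could not be assessed. Since the tables give totals per miR and no read ends, how precisely the reads began and ended could not be seen.

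The letters of 7 of the 79 members with a sequence (8.86%) lay inside a small RNA annotated as another class than miR. Among lower-numbered entries with a read this was 8 of 383 (2.09%), and among late-numbered entries without a read 8 of 752 (1.06%). These 7 members held 928 reads in replicate 1 and 1118 in replicate 2, or 43.4% and 53.7% of all late-numbered reads, most of them on miR-3535. The 8 lower-numbered entries held 0.00538% and 0.00534% of the reads of lower-numbered miRs with a sequence. For such a member, reads of the miR and reads of the other RNA cannot be told apart in the tables. Up to 2 mismatches added no further member.

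Besides miR-3535, miR-5121 lies in a C/D snoRNA, with UGAUGA at bases 7 to 12 as in miR-3535. Its letters are bases 3 to 23 of the 84-base Snord33, whose host is Rpl13a, a ribosomal protein gene. miR-3084-3p lies near the 3′ end of an H/ACA snoRNA, at bases 108 to 128 of the 132-base Snora19 and of its copy Gm23658 (in Cbwd1), and is encoded at 2 loci. Both snoRNAs are shown because the miR sits at opposite ends of them, with its bases in capitals and in DNA letters.
Snord33 with miR-5121: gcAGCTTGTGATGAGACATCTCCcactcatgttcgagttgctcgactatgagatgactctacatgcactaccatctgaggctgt
Snora19 with miR-3084-3p: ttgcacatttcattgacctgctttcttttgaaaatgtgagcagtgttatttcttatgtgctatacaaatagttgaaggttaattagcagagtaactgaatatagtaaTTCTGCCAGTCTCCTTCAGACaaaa
The miR-3068 arms, too, were within an annotated snoRNA, a 136-base transcript in an intron of Alkbh1 that GENCODE names Mir3068, after the miR itself, with the 5p arm at bases 71 to 94 and the 3p arm at 112 to 133. So the name that met the duplex criteria with the stronger fold was also among those inside a snoRNA. miR-6516-5p (2 and 0 reads) was at bases 128 to 149 of the 193-base Gm26083, of the class that guides RNA modification in Cajal bodies. miR-3473b (8 and 4 reads) was in the RNA Gm22514 and in transcripts of 343 genes.

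UGAUGA was in 3 members in all, miR-3535, miR-5121 and miR-7688-5p (4 and 6 reads), of which the last matched no snoRNA. The hairpin of miR-5100 was the only 1 of 1005 hairpins (0.0995%) with the letters GUUCGANUC, which are those of the T arm of tRNAs. They were at bases 34 to 42 of the hairpin, and the mature form began at base 36, inside them. Searched on the RNA strand only, no mature form held all of them, and a match of letters is a description and does not show a tRNA. The hairpin is shown with the mature form in capitals.
Mir5100, chr11:60728663-60728726, plus strand: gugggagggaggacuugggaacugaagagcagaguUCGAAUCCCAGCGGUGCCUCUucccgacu

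The 2 most abundant members, miR-3535 and miR-6240, were longer than most miRs, at 26 bases each. Of the 79 members with a sequence, 59 (74.7%) were 21 to 23 bases long, beside 358 of 383 lower-numbered miRs with a read (93.5%) and 593 of 752 late-numbered miRs without (78.9%). These 59 members carried 25.1% of the reads of members with a sequence in replicate 1 and 14% in replicate 2, against 98.1% and 98.3% for lower-numbered miRs. Members over 24 bases, which were miR-3535, miR-6240 and miR-7222-5p (27 bases, 2 and 0 reads), carried 70.8% and 82.2%, against 1.44% and 1.33% in lower-numbered miRs. The lengths are those of the annotated forms, not of the reads. The median share of G and C was 52.4% in members, 45.5% in lower-numbered miRs with a read and 56.5% in late-numbered miRs without. A U at the first base, common in miRs, was present in 49.4% of members and 41.3% of lower-numbered miRs. Counted by reads the order was the other way, with 63.5% and 63.4% of the reads of members with a sequence and 93.6% and 96.0% of those of lower-numbered miRs in replicates 1 and 2.

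The 73 members with a hairpin sequence came from 70 hairpins, and the 3 hairpins with the most reads were also the 3 with the weakest fold per base. These were Mir7210 at -0.169 kcal/mol per base, Mir6240 at -0.211 and the hairpin of miR-3535 at -0.261. Of 242 lower-numbered hairpins with a read, 0, 2 and 2 folded as weakly as these. The median over entries was -0.40 kcal/mol per base for members and -0.435 for lower-numbered miRs, so that the typical member was not far from the rest. In 68 of the 73 members at least 60% of the bases of the mature form were paired with bases outside it, beside 353 of 356 lower-numbered miRs. miR-3473b, at the other end, had the strongest fold but one, at -0.773 kcal/mol per base.

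**Figure D3:**
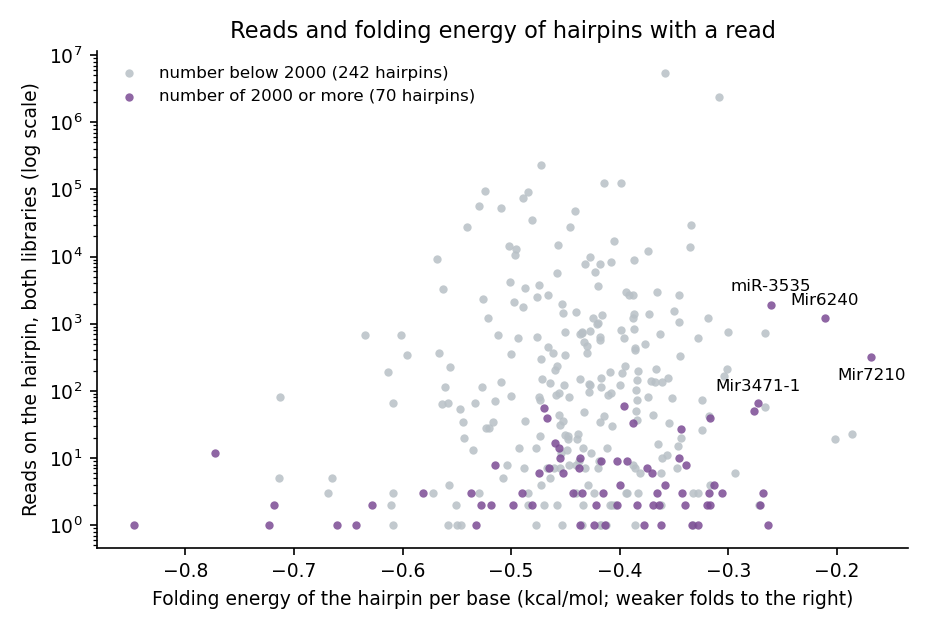
Reads on each hairpin in both libraries together (y axis, log scale) against its folding energy per base in kcal/mol (x axis, weaker folds to the right), for 70 late-numbered hairpins (purple) and 242 lower-numbered hairpins (gray) with a read. The 3 most-read purple points, Mir7210, Mir6240 and miR-3535, lie at the right edge between -0.169 and -0.261, where few gray points lie.

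Hairpins at the 3′ end of an intron, as in mirtrons with a spliced 3′ end, were common among late numbers and rare below 2000. The end of the hairpin lay within 2 bases of an annotated intron's 3′ end for 26 of the 73 members with a hairpin (35.6%), for 336 of 709 late-numbered miRs without a read (47.4%) and for 6 of 356 lower-numbered miRs with a read (1.69%). Of all late-numbered entries with such a hairpin, 26 of 362 (7.18%) had a read, and of those with other hairpins 47 of 420 (11.2%). The 26 members had 66 reads in replicate 1 and 40 in replicate 2, or 3.09% and 1.92% of the late-numbered reads, none reached 10 reads in each library, and 4 were read in both. Those with the most reads were miR-3082-3p, from Stub1 (5 and 12 reads), and miR-7052-3p, from Josd2 (4 and 6 reads). A mature form ending in CAG, the letters of many introns' 3′ ends, was found in 16 of 79 members (20.3%), in 132 of 752 late-numbered miRs without a read (17.6%) and in 5 of 383 lower-numbered miRs with a read (1.31%).

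**Figure D4:**
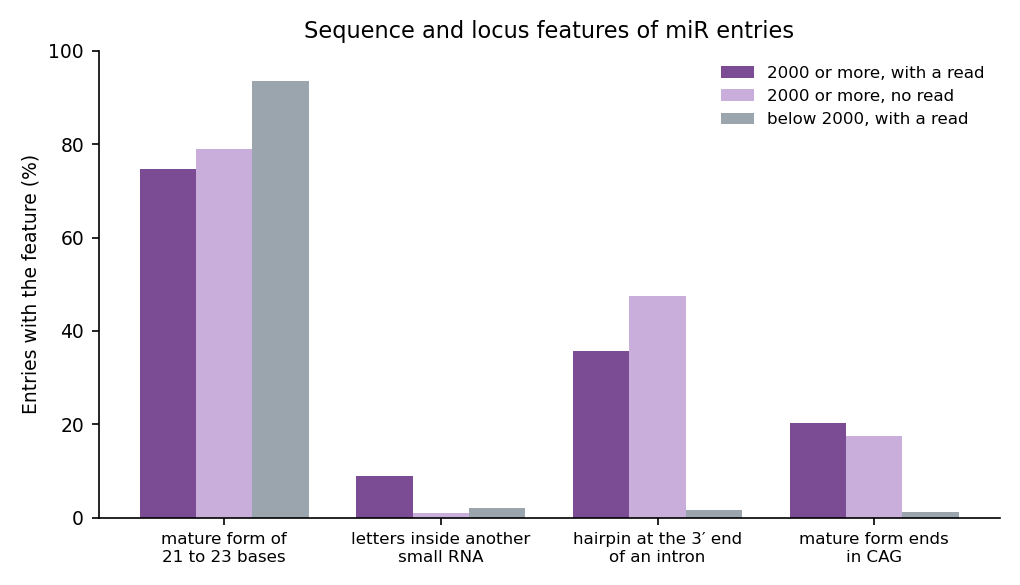
Share of miR entries (y axis, percent) with each of 4 features (x axis), for late-numbered miRs with a read, late-numbered miRs without and lower-numbered miRs with a read, over entries with a sequence or, for the intron feature, a hairpin. Purple and light purple bars are far above gray for intron ends (35.6% and 47.4% against 1.69%) and CAG ends, and gray is highest for forms of 21 to 23 bases (93.5%).

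The whole hairpin was an intron, with both ends at the splice sites, for miR-7068-3p (74 bases, in Cherp, 8 and 0 reads) and miR-6944-3p (96 bases, in Dbn1, 3 and 0 reads). Both were read in replicate 1 only. The first is shown with the mature form in capitals, since it begins with GU and ends with AG, as introns do.
Mir7068, chr8:72470016-72470089, minus strand: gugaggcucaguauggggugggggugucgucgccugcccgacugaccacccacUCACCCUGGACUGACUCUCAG

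Of the 73 members with a hairpin, 35 lay in introns, 10 in exons, 10 in either depending on the transcript and 18 in no gene of the same strand. Hairpins of 4 of the 73 members (5.48%) lay opposite another miR hairpin. This held for 22 of 356 lower-numbered miRs with a read (6.18%) and for 11 of 709 late-numbered miRs without a read (1.55%). The 4 members had 10 reads in replicate 1 and 2 in replicate 2. miR-3074-5p (4 and 2 reads) has 2 loci, and the one examined, in an intron of Fancc, lies opposite Mir24-1, a hairpin of miR-24. miR-3074-5p shares a run of 20 bases with the complement of miR-24-3p, which had 604 and 768 reads. The 2 sequences are shown with their seeds in capitals. The position given for miR-24-3p is that of its copy on chromosome 8, not of the one opposite miR-3074-5p on chromosome 13.
miR-3074-5p, chr13:63301249-63301270, minus strand: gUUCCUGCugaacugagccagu
miR-24-3p, chr8:84208875-84208896, plus strand: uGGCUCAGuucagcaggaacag
miR-3071-5p (3 and 0 reads) shares 19 bases with the complement of miR-136-3p (0 and 6 reads). Reads with the letters of the members can be told from those of the partners, since the letters are complementary and not the same, provided that the strand of each read was kept in counting, which is not given in the sources used here.

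By these features, the late-numbered reads fell into unequal groups. The 7 members inside a small RNA of another class held 43.4% of the reads in replicate 1 and 53.7% in replicate 2. miR-6240, a 26-base form with a weak fold and no such match among the transcripts searched, held 28.0% and 29.3%. The RNA of the large ribosomal subunit and the tRNAs of the nuclear genome were not searched for any member. miR-7210, with both arms read and a duplex with overhangs on a weak fold, held 225 and 97 reads. Only 2 of these reads, in replicate 1, were on its 3p arm. The 26 members at intron 3′ ends held 3.09% and 1.92%. miR-3068 counted in the first group and also had both arms read.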

How the data were processed

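Small RNA of 2 sperm libraries was prepared with a TruSeq kit and sequenced by the authors. They trimmed reads by quality, removed adapters with cutadapt 1.8.1 and mapped with Bowtie 1.1.2, allowing no mismatch in the first step, against their own set of miR and piRNA sequences. HTSeq, mm10 and GRCm38 are also named in the submitters' processing notes. The release of the miR annotation is not given in the sources used here. The authors deposited whole-number read counts for every mature miR in either library, not normalized. The 5 summary entries, among them the reads assigned to no miR, were left out of totals. The step behind the counts is not stated. Where it was that exact mapping, a read with the letters of a miR went to that miR whatever RNA it came from.

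CPM was computed over the miR reads of each library. Sequences were from RefSeq (GRCm38.p6), and GENCODE M21 gave introns, genes and transcripts. Exact matches of mature forms were sought in 3910 small RNA transcripts that were not miRs. Hairpins were folded with RNAfold 2.7.2. TMM was computed with edgeR 4.0.16 and size factors with DESeq2 1.42.0 (R 4.3.3), and the rest with Python 3.11.15, numpy 2.4.6, pandas 2.3.3, scipy 1.17.1 and matplotlib 3.10.9. The share of reads, the log2 ratio and the Wilson interval were checked on simulated data. The sequence matches, folds and intron ends were not.

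With 1 group there was no test. Replicates are described in the study as biological, and their spread may be partly technical. Members and lists were chosen with earlier results of these data known. The rule for naming took the 12 members with the highest mean CPM, those with at least 10 reads in each library, names with both arms read, the 5 largest log2 ratios among members with at least 20 reads, and members matching another annotated RNA. The other members named were chosen after their values were seen.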

Additional observations from a re-analysis of the deposited data

How the results depend on the processing

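The number of members followed the read minimum, from 89 to 51 with at least 3 reads and 14 with at least 10 reads in at least 1 library, and to 28 with at least 1 read and 11 with at least 10 reads in each library. Names with both arms read went from 4 to 1, 1, 0 and 0 under the same minimums, and were 9 for numbers of 1000 or more. The share of miR reads, 0.0448%, was 0.0217% for numbers of 5000 or more, 0.0299% of all reads in the tables, 0.0251% without miR-3535 and, in an alternative added after seeing the data, 0.0123% without miR-3535 and miR-6240. The median log2 ratio of -0.35 was -0.090 under TMM and -0.096 under DESeq2 size factors, and -0.58 without a read minimum beyond 1 read. Leaving out each replicate in turn gave 44 to 73 members, 1 to 3 names with both arms read and a share of 0.0369 to 0.0528%, and the log2 ratio needs both replicates. Joining the arms of miR-3074, also added after seeing the data, gave 5 names. The other alternatives moved a count by at most 1.5 times, the share by less than its SD over the libraries and the median log2 ratio to between -0.44 and -0.30. No paired analysis was possible because there is 1 group. Counts were low for most members, as 50 had at most 3 reads, and the part of depth in this was not tested.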
